A study of Mus musculus with 177 samples.

Results

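The genes described here encode adhesion and junction molecules of the endothelium, the cell layer that lines blood vessels. They were chosen by name, with earlier results of these data known, as Vcam1, Icam1, Icam2, Sele, Selp, Jam2, Jam3, Pecam1 and Cdh5. They were followed over all groups of lung, brain and eye. Of these 9 genes, 8 had a probe set annotated to exactly 1 gene, out of 19937 genes tested on the array. Each of the 8 had 1 such probe set. Selp, which encodes P-selectin, had none and was not analysed here.

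White blood cells leave the blood in steps. Selectins such as E-selectin, encoded by Sele, catch passing cells so that they roll along the vessel wall. Members of the immunoglobulin superfamily, among them ICAM-1, ICAM-2 and VCAM-1, then bind leukocyte integrins and hold the cells in place. Junction molecules such as PECAM-1, VE-cadherin (encoded by Cdh5), JAM-B (Jam2) and JAM-C (Jam3) keep neighbouring endothelial cells together and take part in the passage of leukocytes between them. Icam1, Vcam1 and Sele are textbook targets of the inflammatory transcription factor NF-kB in endothelial cells, whereas Icam2, Pecam1 and Cdh5 are made by resting endothelium.

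The samples were whole lung, brain and eye of C57BL/6 mice at postnatal day 7. Hypoxia groups breathed gas with an oxygen fraction of 0.08 for 120 min and were then given 21, 40, 60 or 100% oxygen for 30 min (H21, H40, H60 and H100). Control groups breathed air, a fraction of 0.21, for the same 120 min and were then given 21 or 100% oxygen (N21 and N100). All groups, controls included, then spent 150 min in air before tissue was taken, so every value is from this late time. The design text describes randomized mice, and the labels do not say which arrays share an animal or litter, so p-values measure the spread between arrays.

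Values are deposited log2 array signals after RMA, in which a difference of 1 is a doubling. The series holds 61 lung, 59 brain and 57 eye arrays, and 174 of the 177 arrays correlated best with the mean profile of their labelled tissue. The array labelled lung H40 replicate 10 correlated at 0.986 with brain and 0.817 with lung. That labelled brain H40 replicate 7 correlated at 0.96 with eye and 0.878 with brain. That labelled eye H40 replicate 9 correlated at 0.957 with lung and 0.885 with eye. These 3 were left out, which left 60 lung arrays (41 hypoxia, 19 normoxia), 58 brain arrays (40 and 18) and 56 eye arrays (38 and 18). Median signals differed between lung, brain and eye (6.25, 6.07 and 6.35), and levels were not compared between tissues. Levels of different probe sets were not compared either, except with the olfactory receptor genes used below as a gauge of background. The number of arrays per group, 9 to 12, limits the precision. In whole tissue, fewer cells of a type and less RNA per cell cannot be told apart.

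The promoter windows of Icam1 and Sele are shown because both genes are known NF-kB targets, and their own values follow below. The windows are RefSeq sequences on GRCm38.p6, plus strand, from 250 bases before to 50 bases after the annotated start. Capitals mark matches to the NF-kB pattern GGNNNTTCC on either strand. Of the 9 genes, 3 had a window (Icam1, Sele and Selp).

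Icam1 promoter, chr9:21015690-21015989: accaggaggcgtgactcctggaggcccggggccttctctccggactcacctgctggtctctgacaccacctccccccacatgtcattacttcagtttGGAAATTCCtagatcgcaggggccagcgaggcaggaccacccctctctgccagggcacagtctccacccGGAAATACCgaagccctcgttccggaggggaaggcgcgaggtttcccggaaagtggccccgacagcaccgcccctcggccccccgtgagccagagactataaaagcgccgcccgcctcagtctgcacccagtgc

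Sele promoter, chr1:164047984-164048283: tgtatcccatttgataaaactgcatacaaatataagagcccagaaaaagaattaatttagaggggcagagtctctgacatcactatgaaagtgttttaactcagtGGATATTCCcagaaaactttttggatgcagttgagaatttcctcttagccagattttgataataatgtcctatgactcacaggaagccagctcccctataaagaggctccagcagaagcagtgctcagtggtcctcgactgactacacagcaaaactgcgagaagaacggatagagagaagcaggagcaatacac

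The Icam1 window held GGAAATTCC, a match on both strands whose first base lay 153 bases before the start, and GGAAATACC, a match on the reverse strand 84 bases before it. The Sele window held GGATATTCC 145 bases before the start. In the Selp window the match was GGAAAGGCC, 14 bases before the start. Such a match occurred in 18.5% of 32851 windows of this length. The TATA box letters TATAAA occurred in the Sele window 49 bases before the start and in the Icam1 window after the start, against 13.6% of all windows. The letters ACGTG, the core of the element bound by hypoxia-inducible factors, were searched on both strands, were in none of the 3 windows and were in 19.6% of all windows. Matches of different patterns did not overlap in these windows, and a match describes the sequence only.

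In lung, the main comparison set the mean of the 4 hypoxia groups against the mean of the 2 normoxia groups. Jam2 was higher and Vcam1 was lower after hypoxia, and the other 6 genes did not pass the test. By limma with Benjamini-Hochberg adjustment at an adjusted p under 0.05, 331 of 19937 genes passed (210 higher, 121 lower), which is 1.66% of the genes tested. Among the 8 measured genes, 1 passed in each direction. Because the genes were chosen with earlier results of these data known, their counts and p-values describe these arrays and are not an independent test. The median change was 0.03 over the 8 genes and 0.01 over all genes.

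Vcam1 encodes the endothelial ligand of the integrin VLA-4, which lymphocytes, monocytes and eosinophils carry. The gene lies on chromosome 3 of GRCm38.p6, from 116110020 to 116129688. Its log2 level in lung ran from 8.78 over a median of 9.15 to 9.42 in N21 and from 8.65 over 9.55 to 10.37 in N100. It ran from 8.16 over 8.64 to 9.71 in H21, from 7.90 over 8.96 to 9.46 in H40, from 7.81 over 9.08 to 9.69 in H60 and from 8.01 over 8.97 to 9.80 in H100.

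The Vcam1 ranges of all 6 groups overlapped, but the hypoxia groups reached lower, and 16 of the 41 hypoxia lungs lay below the lowest normoxia lung. Most of these, 13 of the 16, were among the arrays listed later in the sample records (described below). The class means were 9.33 ± 0.39 (SD, n = 19) in normoxia and 8.83 ± 0.52 (SD, n = 41) in hypoxia. Vcam1 fell by 0.50 ± 0.13 (SE) on the log2 scale, with a 95% interval of the difference from -0.76 to -0.24 and an adjusted p of 0.026 (limma). That is a change of -29.2%, and 35 of the 41 hypoxia lungs were below the normoxia mean. Without N100 replicate 6, the difference was -0.45 and no longer passed (adjusted p 0.06), which was so for no other of the 60 lung arrays left out in turn.

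**Figure D1:**
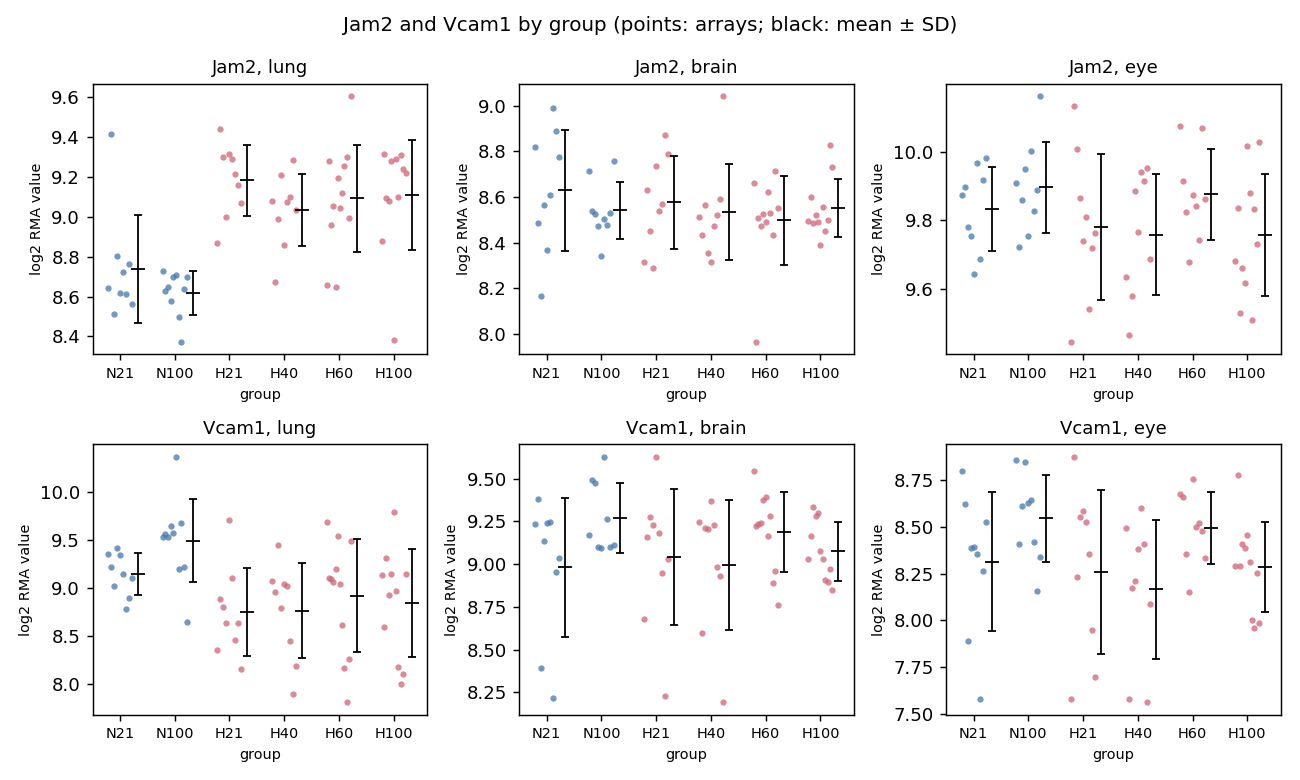
Log2 signal of Jam2 (upper row) and Vcam1 (lower row) in every array used, by group, in lung, brain and eye; each panel has its own axis. Points are arrays (blue normoxia, red hypoxia) and black marks are means with SD. In lung, the 37 of 41 hypoxia arrays above 8.80 lie above all normoxia arrays of Jam2 but N21 replicate 2 at 9.41, and the lowest Vcam1 values are hypoxia arrays.

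Icam1, the ligand of the leukocyte integrins LFA-1 and Mac-1, lies on chromosome 9 from 21015940 to 21028814. Its log2 level in lung ran from 8.88 over 9.23 to 9.62 in normoxia and from 8.85 over 9.32 to 9.70 in hypoxia. The 2 ranges covered nearly the same span. The difference was 0.04 ± 0.06 (SE), with a 95% interval from -0.07 to 0.16.

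Icam2, a ligand of LFA-1 on resting endothelium and platelets, lies on chromosome 11 from 106377656 to 106388139. Its level ran from 7.83 over 8.38 to 9.20 in normoxia and from 7.94 over 8.44 to 9.08 in hypoxia. The difference of 0.13 ± 0.09 (SE) had a 95% interval from -0.05 to 0.31, whose upper end was the highest of the 6 genes that did not pass.

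Sele lies on chromosome 1 from 164039614 to 164058487, and its window above lies within that span. Its log2 level ran from 5.29 over 5.68 to 6.13 in normoxia and from 5.29 over 5.73 to 6.33 in hypoxia. The difference was 0.04 ± 0.06 (SE), with a 95% interval from -0.09 to 0.17. Sele had a low signal: olfactory receptor genes, 1027 of which were measured and which serve here as a gauge of background, had a median of 3.81 and a 95th percentile of 5.43 in lung. The mean of Sele was above 97.5% of them in lung, 97.9% in brain and 98.3% in eye. The other 7 genes were above at least 99.1% of them in each tissue.

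Jam2 encodes JAM-B, a junction molecule that binds JAM-C on neighbouring cells and on leukocytes. The gene lies on chromosome 16 from 84774123 to 84826380. Its log2 level in lung ran from 8.51 over 8.64 to 9.41 in N21 and from 8.37 over 8.64 to 8.73 in N100. It ran from 8.87 over 9.22 to 9.44 in H21, from 8.67 over 9.07 to 9.29 in H40, from 8.65 over 9.09 to 9.60 in H60 and from 8.38 over 9.22 to 9.31 in H100.

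Every H21 lung was above every N100 lung, but these groups also differ in the oxygen given. All other pairs of a hypoxia and a normoxia group overlapped, among them H21 with N21 and H100 with N100. Each hypoxia group had a higher median than both normoxia groups. The highest normoxia value, 9.41, belonged to N21 replicate 2, and the next was 8.80, below 37 of the 41 hypoxia lungs. The class means were 8.68 ± 0.21 (SD, n = 19) in normoxia and 9.10 ± 0.23 (SD, n = 41) in hypoxia. Jam2 rose by 0.42 ± 0.06 (SE), with a 95% interval from 0.30 to 0.55 and an adjusted p of 1e-05 (limma), or 34.2% on the linear scale. Leaving out each lung array in turn gave 0.41 to 0.47, with adjusted p from 1.3e-07 to 4.1e-05.

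Jam3 encodes the partner of JAM-B and lies on chromosome 9 from 27097384 to 27155421. It ran from 7.14 over 7.38 to 7.73 in normoxia lungs and from 6.97 over 7.35 to 7.73 in hypoxia lungs. The difference was -0.03 ± 0.05 (SE), with a 95% interval from -0.12 to 0.06. The rise of Jam2 was thus measured without a detectable change of its partner.

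Pecam1, which binds itself across cell borders, lies on chromosome 11 from 106654213 to 106715281. It ran from 10.49 over 10.89 to 11.13 in normoxia and from 10.42 over 10.90 to 11.27 in hypoxia, a difference of 0.03 ± 0.05 (SE; 95% interval -0.07 to 0.13). Cdh5, the cadherin of endothelial adherens junctions, lies on chromosome 8 from 104101613 to 104144504. It ran from 10.40 over 11.20 to 11.42 in normoxia and from 10.53 over 11.19 to 11.47 in hypoxia, a difference of 0.03 ± 0.07 (SE; 95% interval -0.11 to 0.16). Both are general endothelial genes, and their intervals exclude a change as large as the estimate for Jam2. The adjusted p of the 6 genes that did not pass was 0.81 to 1. In simulated lung data with known changes, 80 of 100 genes changed by 0.3 and 97 of 100 changed by 0.5 were called. The simulated noise was independent between genes and arrays, without a difference between sample records. These counts are averages over randomly picked genes and do not give the power for any of the 6.

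**Figure D2:**
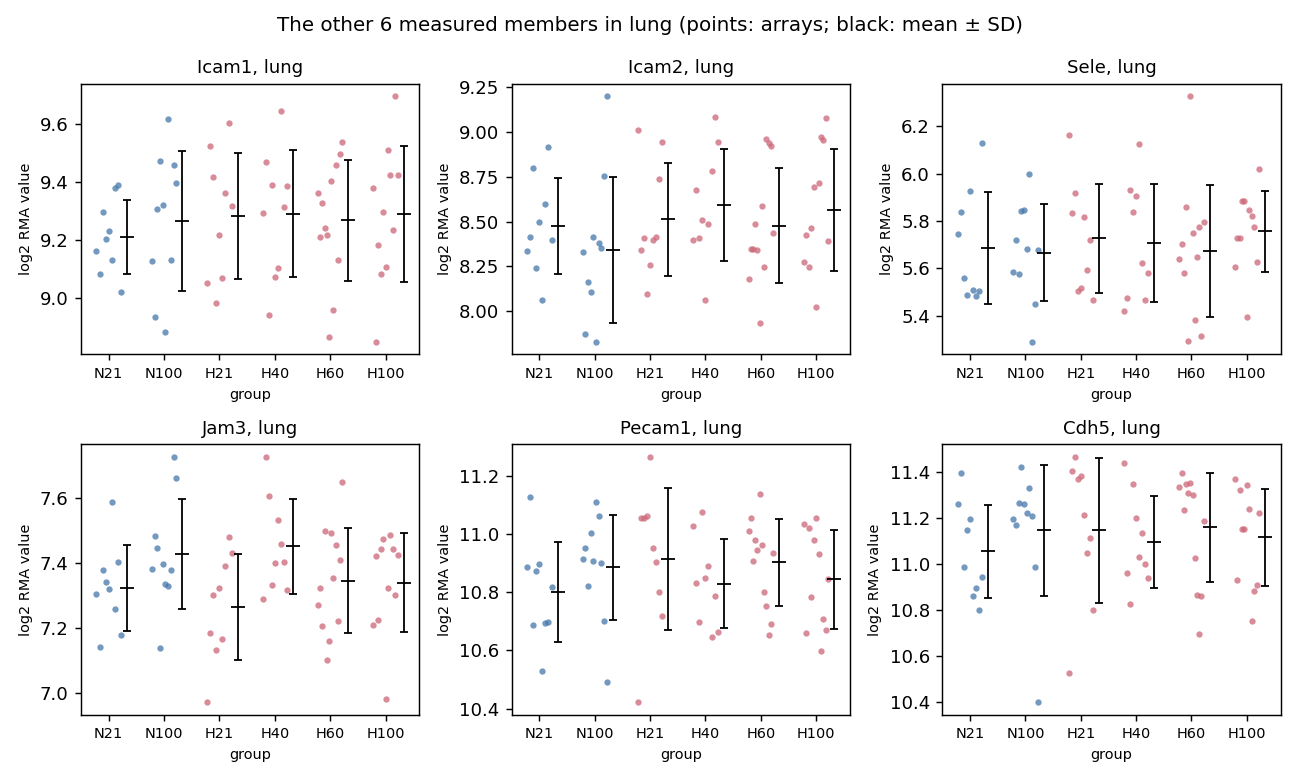
Log2 signal in lung of the 6 genes that did not pass the test, Icam1, Icam2, Sele, Jam3, Pecam1 and Cdh5, by group; each panel has its own axis. Points are arrays (blue normoxia, red hypoxia) and black marks are means with SD; the ranges of the 6 groups overlap for every gene.

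The single groups were compared next, to ask whether the oxygen given after hypoxia mattered. The 5 comparisons against N21 share those control arrays. Jam2 differed from N21 by 0.44 ± 0.11 (SE) in H21, 0.29 ± 0.11 in H40, 0.35 ± 0.10 in H60 and 0.37 ± 0.10 in H100. None passed (adjusted p 0.078, 0.86, 0.54 and 0.35, limma), where 0.0502%, 0.00502%, 0% and 0.0201% of all genes did. Without N21 replicate 2, the array with the high Jam2 value, the differences were 0.53, 0.38, 0.44 and 0.45. Those of H21, H60 and H100 then passed (adjusted p 0.0034, 0.13, 0.023 and 0.017, limma). This omission was chosen after that value was seen, and leaving out a high control value must raise these differences. The passes therefore show only how much the result depends on 1 array. Leaving out that array also raised the genes called from 10, 1, 0 and 4 to 73, 19, 19 and 28. These are 0.366%, 0.0953%, 0.0953% and 0.14% of those tested. H21 also passed without H21 replicate 1 (0.48, adjusted p 0.032, where 0.135% of genes passed), and in all 18 omissions its estimate was 0.41 to 0.53.

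At matched 100% oxygen, H100 against N100, Jam2 was higher by 0.49 ± 0.10 (SE), with a 95% interval from 0.29 to 0.68, or 40.3%. It passed with an adjusted p of 0.013 (limma) and was the only one of the 8 genes to do so, where 21 genes, 0.105% of those tested, passed. Over the 21 omissions of an array of these groups it stayed at 0.46 to 0.56 (adjusted p 0.00023 to 0.041). In the arrays of the first sample records alone (described below) it was 0.40 and did not pass (adjusted p 0.77, where 0% of genes passed). The number of genes called in this comparison moved between 10 (without N100 replicate 4) and 91 (without H100 replicate 6).

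Vcam1 differed from N21 by -0.39 ± 0.22 (SE) in H21, -0.38 ± 0.22 in H40, -0.22 ± 0.21 in H60 and -0.30 ± 0.21 in H100. N100 lay on the other side, 0.35 ± 0.21 above N21. None of these passed (adjusted p 0.98 to 1). H100 was 0.65 ± 0.20 below N100 in Vcam1 (difference -0.65, 95% interval -1.05 to -0.24), which did not pass over all genes (p 0.0023, adjusted p 0.3).

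Oxygen in normoxia gave 0 called genes in lung (N100 against N21, 0% of genes, 328 at an unadjusted p under 0.05), and Jam2 differed by -0.12 ± 0.10. Among the hypoxia groups, the slope from 21 to 100% oxygen also gave 0 called genes (0%, 347 at an unadjusted p under 0.05). The slope of Jam2 was -0.04 ± 0.10 and that of Vcam1 0.11 ± 0.20, with a 95% interval from -0.28 to 0.51. A dependence of either gene on the oxygen level was therefore not detectable with these arrays, and the interval for Vcam1 is wide.

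The sample records list all groups once and later list further arrays of each group, and the labels name no batch. The later records form runs 2 and 3, which are pooled as later records and kept apart in the record run block and the correlations below. In lung, 22 arrays belonged to the later records and 38 to the first. With group in the model, 11256 genes, 56.5% of those tested, differed between later and first records, among them 6 of the 8 genes. Vcam1 had the largest such difference of the 8, -0.64 ± 0.10 (SE; adjusted p 1.2e-07). Icam2 was 0.40 ± 0.07 higher, Icam1 0.18 ± 0.05 and Jam3 0.12 ± 0.04 higher in the later records. Cdh5 differed by -0.30 ± 0.05 and Pecam1 by -0.22 ± 0.04. Jam2 (0.11 ± 0.06, adjusted p 0.12) and Sele (-0.10 ± 0.06, adjusted p 0.17) did not pass.

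Both lung results were therefore given within the records. In the first records, Jam2 was 8.68 ± 0.25 (SD, n = 13) in normoxia and 9.04 ± 0.26 (SD, n = 25) in hypoxia, with overlapping ranges. In the later records it was 8.67 ± 0.07 (SD, n = 6) in normoxia, at 8.56 to 8.76, and 9.21 ± 0.15 (SD, n = 16) in hypoxia, where every lung was above that range. The difference in Jam2 passed in the first records (0.36 ± 0.08, adjusted p 0.045, where 0.256% of genes passed) and in the later ones (0.54 ± 0.07, adjusted p 0.00012, where 0.441% passed), with hypoxia and normoxia pooled into 2 classes. With all 6 groups fitted, the first records alone gave 0.34 for Jam2, which did not pass (adjusted p 0.091, where 0.115% of genes passed).

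Vcam1 in the first records was 9.50 ± 0.32 (SD, n = 13) in normoxia and 9.10 ± 0.35 (SD, n = 25) in hypoxia. In the later records it was 8.97 ± 0.23 (SD, n = 6) and 8.41 ± 0.46 (SD, n = 16). The difference had the same direction in both, -0.40 ± 0.11 and -0.56 ± 0.18, but passed in neither (adjusted p 0.11 and 0.31). With the record run as a block over all 60 arrays, Vcam1 differed by -0.46 ± 0.09 (adjusted p 0.0018) and Jam2 by 0.42 (adjusted p 6.9e-06). Of the N100 lungs, 8 of 10 were in the first records, against 5 of 9 for N21, and the difference of N100 from N21 in Vcam1 was 0.17 ± 0.16 with that block.

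**Figure D3:**
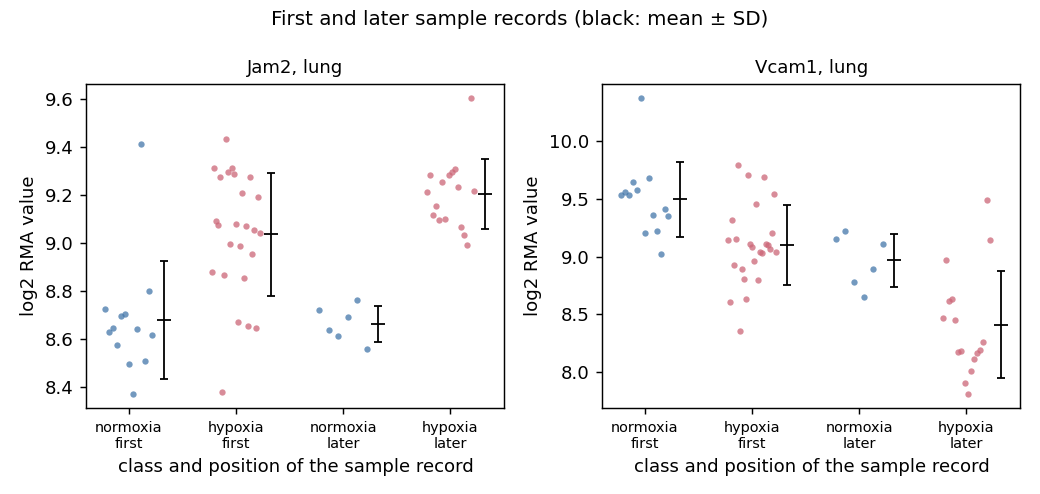
Log2 signal of Jam2 and Vcam1 in lung, split by first and later sample records and by normoxia (blue) and hypoxia (red). Points are arrays and black marks are means with SD. The Jam2 ranges of the later records do not overlap (means 8.67 and 9.21), and Vcam1 is lower in the later records in both classes.

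Other genes of the same pathway were counted in lists by role, in the lung comparison where 1.66% of all genes passed. Lists of this length are too short to tell 0 or 1 from that share. Of 19 junction partners in lung, such as Cldn5, Tjp1 and F11r, 0 passed, and F11r (JAM-A), a relative of Jam2, differed by 0.10 ± 0.04 (SE; adjusted p 0.33). Of 14 leukocyte ligands, 1 passed: Podxl, a sialomucin, was higher by 0.30 ± 0.05 (adjusted p 0.00029). Itga4, the alpha chain of the VCAM-1 receptor VLA-4, differed by -0.11 ± 0.10, and Itgb1, its beta chain, by 0.07 ± 0.07; neither passed. Of 13 family relatives, 1 passed: Cdh2, N-cadherin, was lower (-0.28 ± 0.08, adjusted p 0.04). The medians of these 3 lists were -0.004, -0.06 and -0.002, against 0.01 for all genes.

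Of 19 NF-kB inducers and targets, 0 passed in lung, with a median of 0.01, where 1.66% of all genes passed. A list of 19 genes is too short to tell 0 from that share. Among them Tnf, a cytokine that induces Vcam1, Icam1 and Sele in endothelial cells, differed by -0.12 ± 0.07 (SE), and Nfkbia, the inhibitor that NF-kB itself induces, by 0.07 ± 0.06.

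Endothelial markers were counted to see whether the signal of these cells moved with Jam2 or Vcam1. Of 27 markers 0 passed, the median was -0.01, and their mean log2 level was 9.34 to 9.85 over normoxia lungs and 9.36 to 9.79 over hypoxia lungs. Of the capillary (7), venous (6) and arterial (8) markers 0 passed, and of 6 lymphatic markers Flt4 was lower (-0.20 ± 0.05, adjusted p 0.023, limma). Lists of 6 to 27 genes are too short to tell these counts from the 1.66% of all genes that passed. In lists of markers of other cell types, 0 to 2 genes per list passed, against 1.66% of all genes. Of 12 neutrophil markers Mmp8 was higher by 0.91 ± 0.15 (adjusted p 0.00013), all 12 had a positive difference (median 0.30), and their mean level was 5.60 to 6.81 in normoxia and 5.82 to 7.40 in hypoxia.

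Of 12 lung mesenchyme markers, Wnt2 (-0.51 ± 0.12) and Fgf10 (-0.34 ± 0.08) were lower (adjusted p 0.011 each), with a mean level of 9.99 to 10.65 against 9.93 to 10.64. Of 10 smooth muscle and pericyte markers, Tagln (0.22 ± 0.06) and Cspg4 (0.18 ± 0.05) were higher. All 10 had a positive difference, with a median of 0.16 and a mean level of 9.39 to 9.79 against 9.38 to 9.90. Of 10 neuron markers Stmn2 (0.30) and of 7 astrocyte markers Aldh1l1 (0.22) were higher. Leukocyte (10, mean level 8.11 to 9.16 against 8.09 to 8.84), platelet (7), type 2 alveolar (10), oligodendrocyte lineage (7) and lens (10) markers had 0 that passed. All 7 platelet markers had a positive difference (median 0.08). The part of these markers in the values of Jam2 and Vcam1 was not tested.

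Over the 60 lung arrays, each gene's deviations from the mean of its group and record run were compared with those of Jam2 and Vcam1. An array alone in its group and record run has no deviation, so fewer than 60 arrays inform these correlations. The genes most like Jam2 were Adap2 (Pearson r 0.80), Hsd11b1 (0.79), which encodes an enzyme that regenerates active glucocorticoid, and Xdh (0.78), which encodes xanthine dehydrogenase. Hsd11b1 and Xdh were also higher after hypoxia, by 0.48 (adjusted p 5e-04) and 0.72 (adjusted p 2.5e-05), while Adap2 (0.25, adjusted p 0.22) did not pass. The genes most like Vcam1 were Canx (0.82), Igsf10 (0.82) and Prelp (0.81), none of which passed (adjusted p 0.96, 0.064 and 0.76). All 6 correlations are over the same arrays, which were normalized together, and are given as a description.

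In brain, 17 genes passed for hypoxia against normoxia (16 higher, 1 lower; 0.0853%), and 0 of the 8 genes did. At an unadjusted p under 0.05 there were 2 of the 8, and 634 of all genes. Pecam1 was among them: it ran from 6.85 over 7.32 to 7.72 in normoxia and from 6.77 over 7.51 to 7.95 in hypoxia, and 37 of 40 hypoxia brains were above the normoxia mean. Its difference was 0.15 ± 0.06 (SE, 95% interval 0.04 to 0.26), with an adjusted p of 1. With array quality weights it was 0.19 ± 0.04 and passed (adjusted p 0.038, limma). Those weights raised the genes called in brain from 17 to 41, the most of any setting. Jam3, the other, ran from 6.74 over 7.10 to 7.63 in normoxia and from 6.29 over 6.95 to 7.37 in hypoxia, a difference of -0.16 ± 0.07 (95% interval -0.30 to -0.02, adjusted p 1). The ranges of both genes overlapped between the classes.

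Jam2 and Vcam1, the genes that passed in lung, did not differ detectably in brain. Jam2 ran from 8.17 over 8.53 to 8.99 in normoxia brains and from 7.97 over 8.52 to 9.04 in hypoxia brains, a difference of -0.05 ± 0.06 (SE; 95% interval -0.16 to 0.07). Vcam1 ran from 8.21 over 9.15 to 9.62 and from 8.19 over 9.16 to 9.63, a difference of -0.05 ± 0.08. Icam1 differed by 0.08 ± 0.05, Icam2 by 0.05 ± 0.06, Sele by -0.02 ± 0.06 and Cdh5 by -0.04 ± 0.06. In brain, N100 was 0.29 ± 0.14 above N21 in Vcam1 (p 0.044, adjusted p 0.95), with N21 at 8.21 to 9.38 and N100 at 9.10 to 9.62. Between later and first records of brain, where 44.8% of genes differed, Vcam1 (-0.32 ± 0.07), Jam3 (-0.28 ± 0.06), Sele (-0.22 ± 0.06), Cdh5 (-0.20 ± 0.05), Jam2 (0.21 ± 0.05) and Icam1 (0.13 ± 0.05) passed. Within the first and the later records of brain, with 2 pooled classes, 0 of the 8 genes passed for hypoxia against normoxia, where 0.0251% and 0.01% of genes did.

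In eye, 17 genes passed (13 higher, 4 lower; 0.0853%), again 0 of the 8 genes. At an unadjusted p under 0.05 there was 1 of the 8, and 1001 of all genes. That gene was Sele, which ran from 5.51 over 5.84 to 6.08 in normoxia and from 5.26 over 5.97 to 6.49 in hypoxia. Of the 38 hypoxia eyes 14 were above the highest normoxia eye, and the difference was 0.14 ± 0.07 (SE; p 0.046, adjusted p 0.99). In eye the olfactory receptor genes had a 95th percentile of 5.41, within the range of the Sele values of hypoxia eyes.

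Jam2 ran from 9.64 over 9.88 to 10.16 in normoxia eyes and from 9.45 over 9.82 to 10.13 in hypoxia eyes, a difference of -0.07 ± 0.05 (SE; 95% interval -0.17 to 0.02). Vcam1 ran from 7.58 over 8.42 to 8.86 and from 7.56 over 8.36 to 8.88, a difference of -0.13 ± 0.09 (95% interval -0.31 to 0.05). Icam1 differed by 0.07 ± 0.08, Pecam1 by 0.04 ± 0.07, Jam3 by -0.05 ± 0.06 and Cdh5 by -0.04 ± 0.06, and Icam2 had a 95% interval from -0.12 to 0.12. Between H100 and N100, Icam2 differed by 0.22 ± 0.09 (p 0.021, adjusted p 0.51). Between later and first records, where 38.7% of genes differed in eye, Icam1 (-0.44 ± 0.06), Vcam1 (-0.25 ± 0.08) and Icam2 (0.21 ± 0.05) passed. Within the first and the later records of eye, 0 of the 8 genes passed, where 0% and 0.01% of genes did. In the single-group comparisons of brain and eye, 0 of the 8 genes passed, where 0% to 0.01% of all genes did in each. None of the lists above had a gene that passed for hypoxia against normoxia in brain or eye, where 0.0853% of all genes did in each.

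**Figure D4:**
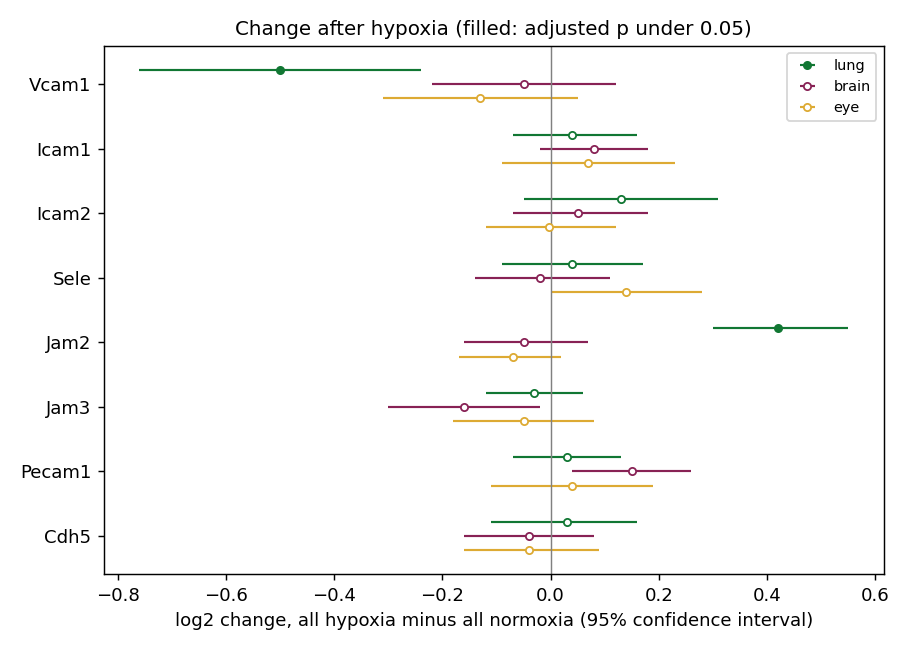
Difference of hypoxia from normoxia in log2 signal for the 8 genes in lung, brain and eye. Points are limma estimates, bars are 95% intervals and the vertical line marks no difference. In lung Jam2 lies at 0.42 and Vcam1 at -0.50, while the intervals of both genes in brain and eye include 0.

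The difference of the hypoxia change between tissues was tested in 1 fit over all arrays. This fit treated arrays of different tissues as independent, although the labels do not say which arrays share an animal. For Jam2 the change in lung exceeded that in brain by 0.47 ± 0.08 (SE; 95% interval 0.32 to 0.63, adjusted p 3.2e-05, where 0.451% of genes passed). It exceeded that in eye by 0.50 ± 0.08 (95% interval 0.34 to 0.65, adjusted p 6.4e-06, where 0.396% passed). Brain and eye differed by 0.03 ± 0.08 for Jam2, in a comparison where 0.01% of genes passed. For Vcam1 the change in lung differed from that in brain by -0.45 ± 0.15 (adjusted p 0.28) and from that in eye by -0.37 ± 0.15 (adjusted p 0.58), and neither passed. With the record run as a term, the difference of Vcam1 between lung and brain passed (-0.46 ± 0.12, adjusted p 0.033, limma). The genes called in that tissue comparison moved between 30 and 294 over the settings, against 90 in the main fit. For the other 6 genes the adjusted p was 1 in each of the 3 tissue comparisons.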

How the data were processed

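The authors deposited log2 expression values of Affymetrix Mouse Gene 1.0 ST arrays, processed with RMA per the submitters' processing notes (version not given in the sources used here). RMA equalizes array distributions, which can hide a shift of all genes. The labels' protocols describe a blood RNA preparation, whereas the design text names tissue in RNAlater. Of 34760 probe sets, 21640 had 1 gene symbol, 1321 several and 11799 none in GEO's platform annotation; 21553 matched a RefSeq gene. The probe set with the highest mean stood for a gene. Groups and replicate numbers came from sample titles. limma 3.58.1 in R 4.3.3 (lmFit, eBayes) was fitted to 6 groups per tissue, with Benjamini-Hochberg adjustment over 19937 genes, and was tested on simulated data. The members and lists were chosen with earlier results of these data known. The members are named throughout, as are list genes that passed, a few list genes with a known link to a member, and the 3 genes most correlated with Jam2 and Vcam1. Alternatives covered the record run (3 runs as a block, or first and later sample records), array quality, normalization, dim genes, sex, pairing and single arrays.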

Additional observations from a re-analysis of the deposited data

Results flagged for a closer look

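Among 104 combinations of gene and group with 9 or 10 arrays, 10 had an array far from its group, measured by its gap to the nearest array relative to the range of the group; chance gives about 1 in 20. In lung, Jam2 was 9.41 in N21 replicate 2 (the others 8.51 to 8.80), and Cdh5 was 10.40 in N100 replicate 10 (10.99 to 11.42). In brain, Cdh5 was 6.83 in H21 replicate 1 (7.38 to 7.78) and 8.03 in H40 replicate 4 (7.33 to 7.62). Icam2 was 5.69 in brain N21 replicate 9 (5.99 to 6.25), and Jam2 was 9.04 in brain H40 replicate 10 (8.32 to 8.59). Jam3 was 6.74 in brain N100 replicate 3 (7.02 to 7.28), and Pecam1 was 6.77 in brain H40 replicate 2 (7.37 to 7.61). In eye, Icam1 was 6.45 in H21 replicate 9 (6.99 to 7.45), and Icam2 was 6.97 in N21 replicate 7 (6.42 to 6.67).

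The hypoxia change of Jam2 differed between tissues in a test of the difference itself, by 0.47 between lung and brain and by 0.50 between lung and eye.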

How the results depend on the processing

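For hypoxia against normoxia in lung, 2 of the 8 genes passed. The count was 1 with the arrays of another tissue kept, with oxygen-matched groups (H21 and H100 against N21 and N100) and in the first or the later records alone with 2 pooled classes, and 0 in the first records with 6 groups; without single arrays it was 1 to 2. In the first records with 6 groups Jam2 differed by 0.34 (adjusted p 0.091) and Vcam1 by -0.36 (0.19); Vcam1 differed by -0.50 with other-tissue arrays (0.056) and by -0.52 with oxygen-matched groups (0.069). The number of genes called, 331, was 23 in the first records with 6 groups, 51 and 88 in the first and later records with pooled classes, 95 with other-tissue arrays, 206 with oxygen-matched groups, 504 with the record run block and 834 with array weights. For H21 against N21 the count of 0 became 1 with array weights, without the dimmest 40% of genes, with the record run block and without low-correlation arrays, each time Jam2, and was 0 to 1 without single arrays. For H100 against N100 the count of 1 became 2 with array weights and 2 with the replicate block, where Vcam1 differed by -0.63 in each (adjusted p 0.043 and 0.026), and 0 in the first records (Jam2 0.40, adjusted p 0.77). The genes called over these settings were 0 to 141 (10 in the report) for H21 against N21, 0 to 205 (21) for H100 against N100, 2 to 41 (17) for hypoxia in brain, 0 to 53 (17) in eye, 30 to 294 (90) and 20 to 300 (79) for the differences of lung from brain and from eye, and 0 to 432 (0) for H100 against N100 in eye, the highest with array weights. Without N21 replicate 2, 1 of the 8 genes, Jam2, passed for H60 and 1 for H100 against N21, with 19 and 28 genes called over all genes, against 0 and 4. In brain 1 passed with array weights, and for the difference of lung from brain 2 passed with the record run block and 2 with array weights (Vcam1 -0.47, adjusted p 0.012).

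Replicate numbers were not taken as pairs. The median correlation of same-numbered arrays of different groups was 0.13 in lung and brain and 0.03 in eye. It was -0.02, -0.02 and -0.03 for arrays with other numbers. Of the same-numbered pairs, 55.4%, 54.5% and 39.7% were over 0.1, a share not taken for the other pairs. The lowest replicate numbers were in the first records and the highest in the later ones. These correlations and the replicate block can therefore carry the difference between records, and they do not decide whether arrays were paired. With the replicate block, the hypoxia difference in lung was 0.41 for Jam2 (adjusted p 2e-05) and -0.50 for Vcam1 (0.00022), with 417 genes called.

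Signs turned for genes that had not passed. In lung, Cdh5 was -0.07, Pecam1 -0.06 and Icam1 -0.03 with other-tissue arrays, Cdh5 -0.004 and Icam1 -0.01 in the first records, and Cdh5 -0.01 without N100 replicate 10. In brain, Sele was 0.01 with array weights, 0.03 with the replicate block, 0.01 with the record run block and 0.02 in the first records, Cdh5 was 0.02 in the first records and 0.02 with weights, and Vcam1 was 0.03 in the first records. In eye, Icam2 was 0.05 with other-tissue arrays, 0.01 with the replicate block, 0.001 with sex as a covariate, 0.01 without low-correlation arrays, 0.005 with 2 pooled classes and 0.08 with oxygen-matched groups. The cause of these changes was not tested. The record-run alternatives with pooled classes, and single-array omissions other than for the hypoxia comparison, were chosen after seeing the data.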
